A study of Mus musculus with 18 samples.

Results

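The transcripts of 35 genes of DNA repair and of the checkpoints that answer to DNA damage were followed in WT and Mtgr1-/- mouse duodenal crypts and in the enteroids grown from them. The genes were taken by symbol, with earlier results of these data known. Each was found in all 3 tables, which list 17759 genes for crypts, 17423 for day 1 and 17612 for day 3. By role they comprised 16 genes of homologous recombination, 10 of the Fanconi anaemia pathway, 7 of checkpoint signalling and 2 of mismatch repair. Poly(A) RNA was sequenced from 3 WT (Mtgr1+/+) and 3 Mtgr1-/- mice, and each mouse gave a library from freshly isolated crypts, a library from enteroids 24 h after plating (day 1) and a library from enteroids 72 h after plating (day 3), which makes 18 libraries. Mtgr1, listed as Cbfa2t2, encodes a transcriptional corepressor of the myeloid translocation gene family. The mice were age-matched littermates of both sexes, and the Mtgr1-/- mice carried the mutation in every cell. Enteroids are cultures of intestinal epithelium that grow from crypts in a gel, here in a medium with EGF, Noggin and R-spondin that was the same for both genotypes.

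Cells repair a double-strand break by homologous recombination when a sister chromatid can serve as the template, so many genes of this pathway are transcribed most in cells that replicate their DNA. The Fanconi anaemia proteins open crosslinks between DNA strands and hand the lesion to recombination, and mismatch repair removes the errors left by the replicative polymerases. ATM and ATR are the kinases that sense breaks and stalled replication forks, and CHK1 and CHK2 carry their signal to the cell cycle. In the crypt, stem cells and transit-amplifying cells divide rapidly, while enterocytes of the villus no longer divide.

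Values were normalized counts, which are gene counts divided by 1 size factor per library within the table of a time point. Differences were tested with limma on log2(normalized count + 1), and a gene was called when its Benjamini-Hochberg adjusted p over all genes tested was under 0.05. A log2 fold change here is the mean of the libraries labelled Mtgr1-/- minus the mean of the WT libraries, with its standard error (SE). All 35 genes passed the minimum mean of 10 at every time point. Dividing out the size factors gave 22035316 to 29661084 reads on genes per library.

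The targeted gene itself did not mark the genotype. Cbfa2t2 stood at 614, 523 and 595 normalized counts in WT crypts and at 697, 466 and 534 in crypts labelled Mtgr1-/-. At day 1 it was at 788, 710 and 757 against 1160, 1008 and 789, and at day 3 at 869, 774 and 883 against 892, 976 and 766. The log2 fold changes of -0.05 (adjusted p = 0.917), 0.37 (adjusted p = 0.0557) and 0.06 (adjusted p = 0.686) did not pass the threshold, and which part of the gene the mutation removes is not given in the sources used here. The groups are therefore named by their labels. They did differ in Olfm4, a marker of crypt base stem cells, which was at 25673 to 33032 in WT crypts and at 133 to 512 in those labelled Mtgr1-/- (log2 fold change -6.77, adjusted p = 0.000621). The other 4 of 5 such markers were not called in crypts, and the median log2 fold change of the 5 was -0.29. All 7 epithelial markers were expressed in all 18 libraries. WT crypt library 3 stood apart, with a summed value of 10797 over 8 leukocyte markers against 645 to 1429 in the other 5 crypt libraries, and with 1 of the 8 at 0 in 2 of those 5. Fewer cells of a type and less RNA per cell cannot be told apart in bulk libraries.

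In crypts, limma called none of the 35 genes different between the genotypes. The median log2 fold change was -0.10. Of the 35 genes 29 had the lower mean in the libraries labelled Mtgr1-/-, against 6320 of the 12980 genes tested. Over all genes tested, 3.15% were called lower and 1.58% higher. At an unadjusted p under 0.05 there was 1 gene, and edgeR and DESeq2 on recovered reads, without WT crypt library 2, called 0 as well. That gene was Rad54b, a motor protein of homologous recombination. It was at 181, 156 and 144 in WT crypts and at 124, 125 and 104 in those labelled Mtgr1-/-, a log2 fold change of -0.44 (SE 0.17, adjusted p = 0.237). Rad54b was also the 1 gene of the 35 with all 3 libraries below all 3 WT libraries, a pattern that 13.5% of all genes showed.

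The small crypt median moved with single libraries. Crypt library 3 labelled Mtgr1-/- had the lowest member median, -0.43 on the log2 scale against the WT mean, while libraries 1 and 2 stood at -0.03 and 0.10. The WT libraries had medians of 0.09, 0.02 and -0.13, the last from the library with the high leukocyte markers. Without crypt library 3 labelled Mtgr1-/- the median was 0.01, and without WT crypt library 3 it was -0.20, with 0 genes called in both cases. The part of the leukocyte RNA in these values was not tested.

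**Figure D1:**
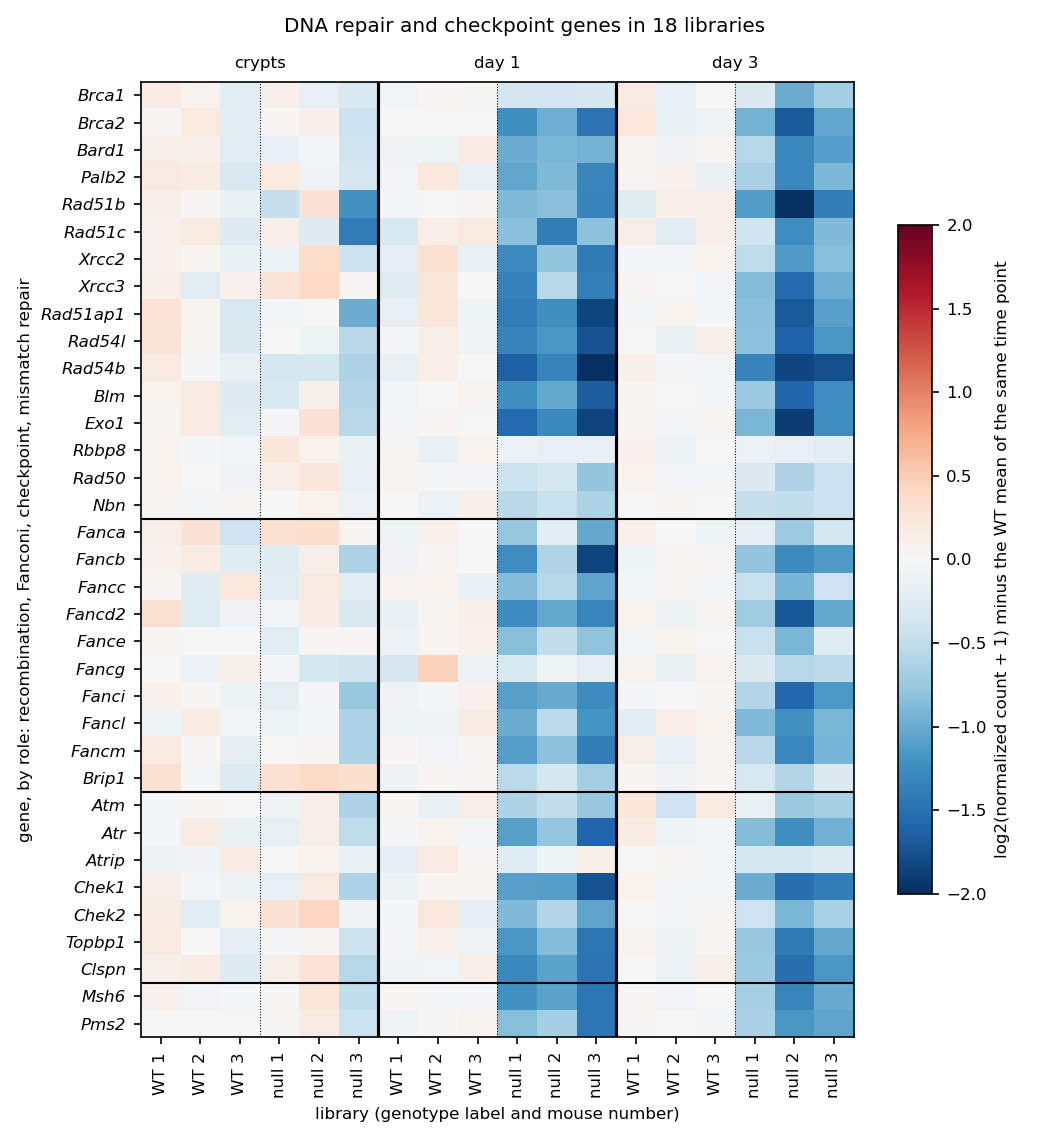
Each row is 1 of the 35 genes, ordered by role, and each column 1 of the 18 libraries, with WT and null (the libraries labelled Mtgr1-/-) by mouse number. Colour gives log2(normalized count + 1) minus the WT mean of the same time point, and values beyond 2 in either direction have the end colour. The crypt columns are pale in both genotypes, apart from the third null library, and the null columns of day 1 and day 3 are blue in nearly every row.

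One day after plating, 32 of the 35 genes were lower in the enteroids labelled Mtgr1-/- and none was higher. Over all genes tested 28.9% were called lower and 30.0% higher. The same 32 genes had all 3 libraries labelled Mtgr1-/- below all 3 WT libraries, which 33.9% of all genes did. The median log2 fold change was -1.08, against -0.01 over all genes tested, and 20 of the 35 stood at or under 50% of the WT mean. The 3 genes that were not called were Rbbp8, Fancg and Atrip.

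Among the recombination genes, 15 of 16 fell at day 1, with a median log2 fold change of -1.09. Rad54b fell furthest. It was at 256, 311 and 284 in WT and at 91.0, 111 and 65.1 in the libraries labelled Mtgr1-/-, which left 31.4% of the WT mean (log2 fold change -1.69, SE 0.22, adjusted p = 0.000604). The annotated span of Rad54b overlaps that of Fsbp on the same strand, so reads could be split between them.

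Exo1, the nuclease that resects broken ends and also cuts the strand in mismatch repair, was at 805, 850 and 831 in WT and at 282, 337 and 229 in those labelled Mtgr1-/-. Its log2 fold change was -1.56 (SE 0.15, adjusted p = 0.000213). Rad51ap1, an accessory factor of recombination, was at 454, 601 and 481 against 192, 217 and 142. Its log2 fold change was -1.48 (SE 0.19, adjusted p = 0.000613), and in all 3 genes the WT libraries lay far above the others. Rad54l, the other RAD54 motor, fell by 1.41 on the log2 scale.

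The BRCA genes and their partners fell as well. Brca2, a mediator of recombination, was at 563, 559 and 556 in WT and at 238, 283 and 200 in the libraries labelled Mtgr1-/- (log2 fold change -1.23, SE 0.14, adjusted p = 0.000443). Palb2, the bridge between BRCA1 and BRCA2, fell by 1.08, and Bard1, the partner of BRCA1, by 0.95 on the log2 scale. Brca1 itself changed least among the genes called lower. It was at 1025, 1094 and 1085 against 816, 817 and 843, so its groups did not overlap although it kept 77.3% of the WT mean (log2 fold change -0.37, SE 0.08, adjusted p = 0.0058).

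Rad51b, Rad51c, Xrcc2 and Xrcc3, whose products work together in complexes that promote recombination, had log2 fold changes from -1.01 to -1.16. Rad51b and Rad51c were among the low genes of the list, with WT means of 82.2 and 64.0 normalized counts, and the call of Rad51c (adjusted p = 0.0139) was lost without WT library 2 or 3. Blm, the helicase that dissolves joined recombination intermediates, fell by 1.30 on the log2 scale.

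Rad50 and Nbn, subunits of the complex that binds the ends, were at 70.4% and 68.4% of their WT means (log2 fold changes -0.52 and -0.55, adjusted p = 0.00864 and 0.00282). Rbbp8, which encodes CtIP and starts resection together with that complex, was at 1088, 959 and 1107 in WT and at 966, 936 and 934 in the libraries labelled Mtgr1-/-. The WT library at 959 lay inside the other group, and the log2 fold change of -0.15 (SE 0.09, adjusted p = 0.186) did not pass the threshold.

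Of the Fanconi genes 9 of 10 fell at day 1, with a median of -0.87. Fancb, a subunit of the core complex that attaches ubiquitin, was at 268, 294 and 283 in WT and at 118, 186 and 77.2 in those labelled Mtgr1-/- (log2 fold change -1.23, SE 0.29, adjusted p = 0.00781). Fancd2 and Fanci, the pair that the core complex modifies, moved together. Fancd2 was at 474, 543 and 562 against 219, 259 and 208 (log2 fold change -1.20, SE 0.13, adjusted p = 0.000374), and Fanci at 382, 395 and 427 against 188, 199 and 168 (log2 fold change -1.12, SE 0.13, adjusted p = 0.000394).

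Fancm, the translocase that anchors the core complex on DNA, fell by 1.10 and Fancl, its ubiquitin ligase, by 0.91 on the log2 scale. The core subunits Fancc, Fance and Fanca had log2 fold changes of -0.83, -0.72 and -0.67, and Brip1, a helicase that binds BRCA1, of -0.53. Fanca was the least stable of these calls. Its adjusted p was 0.0202, and the call was lost when WT library 2 or 3, or library 1 or 3 labelled Mtgr1-/-, was left out.

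Fancg, another core subunit, was at 150, 263 and 175 in WT and at 153, 180 and 168 in those labelled Mtgr1-/-. These groups overlapped, with the spread carried by 1 WT library, and the log2 fold change of -0.19 (SE 0.22, adjusted p = 0.472) did not pass the threshold.

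Checkpoint genes fell in 6 of 7 cases at day 1, with a median of -1.15. Chek1, the effector kinase of ATR, fell furthest and was at 481, 531 and 536 in WT and at 243, 241 and 153 in the libraries labelled Mtgr1-/- (log2 fold change -1.31, SE 0.19, adjusted p = 0.00102). Clspn, which encodes the adaptor claspin, was at 1168, 1173 and 1330 against 497, 579 and 438 (log2 fold change -1.28, SE 0.12, adjusted p = 0.000236). Topbp1, which activates ATR, was at 3657, 3942 and 3550 against 1657, 2037 and 1346 (log2 fold change -1.16, SE 0.15, adjusted p = 0.000572).

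Atr fell by 1.15 on the log2 scale, whereas the transcript of its obligate partner did not pass the threshold. Atrip, which carries ATR to single-stranded DNA, was at 258, 328 and 298 in WT and at 248, 276 and 317 in those labelled Mtgr1-/- (log2 fold change -0.07, SE 0.15, adjusted p = 0.699). The Atrip span overlaps that of Trex1 on the same strand. In the branch that senses breaks, Atm kept 65.0% and Chek2 56.0% of the WT mean, with log2 fold changes of -0.62 and -0.84 (adjusted p = 0.00243 and 0.00299).

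Both mismatch repair genes fell at day 1. Msh6, whose product recognises single mispaired bases, was at 2261, 2182 and 2184 in WT and at 959, 1056 and 799 in the libraries labelled Mtgr1-/- (log2 fold change -1.24, SE 0.11, adjusted p = 0.000187). Pms2, whose product nicks the new strand, was at 396, 426 and 440 against 233, 261 and 154 (log2 fold change -0.99, SE 0.20, adjusted p = 0.00387). The Pms2 span overlaps those of Gm42421 and Rsph10b on the same strand.

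**Figure D2:**
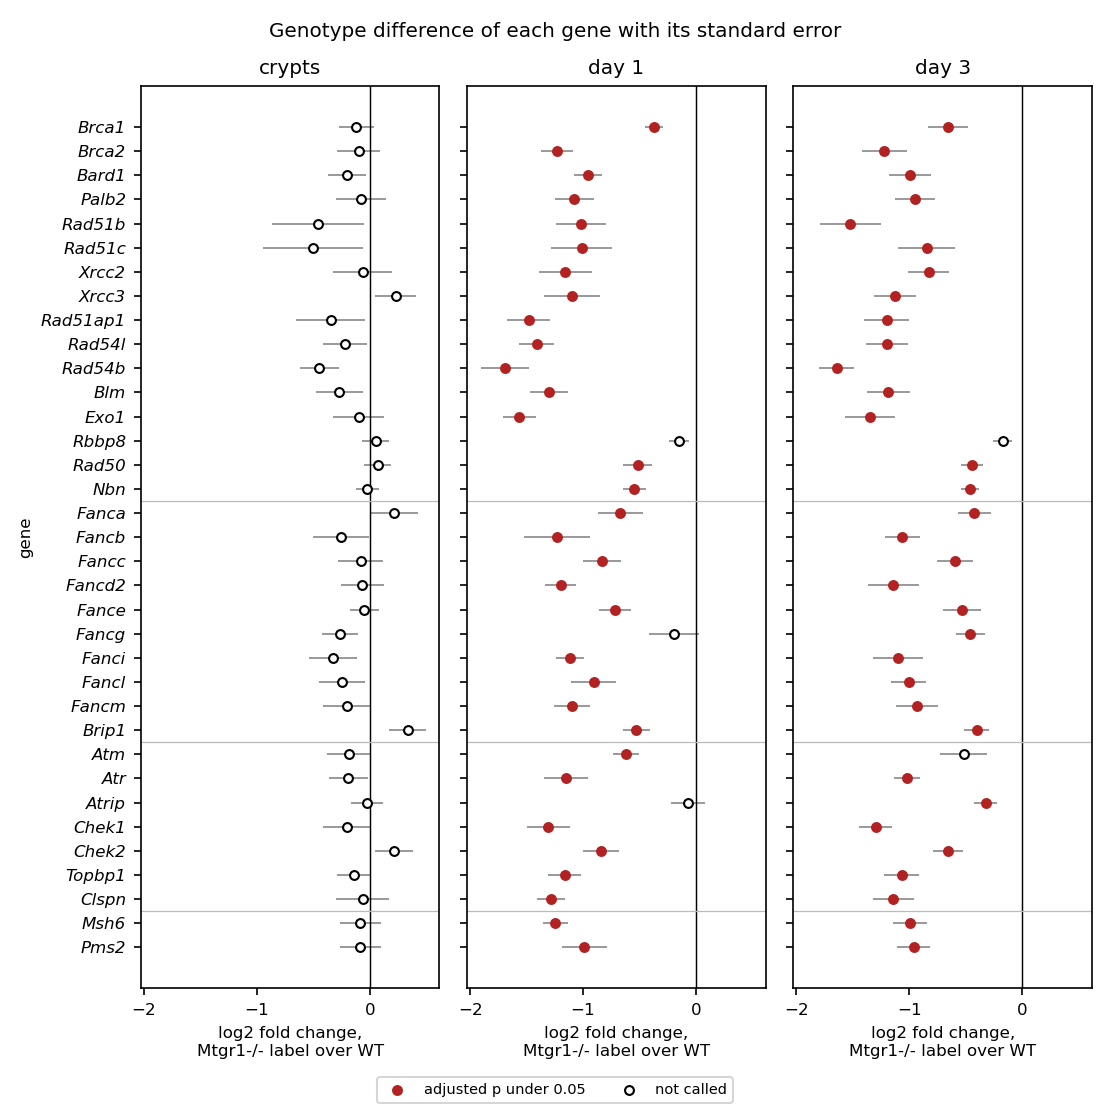
Points give the log2 fold change of each gene (libraries labelled Mtgr1-/- over WT) and bars its standard error, in crypts, at day 1 and at day 3, with 3 libraries per genotype. Filled points are called. No point is filled in crypts, 32 are filled at day 1 and 33 at day 3, and all filled points lie to the left of 0.

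Since so many of the genes moved together, the promoter windows of RefSeq on GRCm38.p6 (250 bases before to 50 bases after a transcription start) were searched on both strands for the letters of 3 elements known from genes of dividing cells. These were E2F letters (TTCCCGC and the variants TTCGCGC and TTGGCGC and also TTGCCGC), the cell cycle homology region CHR (TTTGAA or TTCGAA) and CCAAT. Windows were given for 28 of the 35 genes. E2F letters lay in the windows of 18 of the 28 (64.3%), against 19.1% of the genes tested at day 1, 24.7% of those called lower at day 1 and 10.9% of all genes with a window. CCAAT was in 67.9% of the 28 and in 43.5% of the genes tested, and CHR letters in 10.7% and 16.8%. In a list of 24 cell cycle genes, of which 20 had a window, 45% held E2F letters, 85% CCAAT and 55% CHR letters. The letters of the 3 elements can overlap, these shares are descriptions with no test, and a match is not a bound site.

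The stretch of 30 bases around the first E2F match is shown for the gene with the largest day 1 fall that has a match in each role group, with the match in capitals. They are Rad51ap1 (chr6:126939557-126939586, minus strand), Fancb (chrX:164980409-164980438, plus strand), Chek1 (chr9:36726609-36726638, minus strand) and Msh6 (chr17:87975055-87975084, plus strand).
Rad51ap1: tctggttttcgGCGGGAAttgaaaccgcca
Fancb: ccggggtagagGCGGGAAtaagtgctctgc
Chek1: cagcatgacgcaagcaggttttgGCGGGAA
Msh6: tcctcccgactTTCCCGCcagcggcggccg
The first 3 carry the same 7 letters, which are the reverse complement of those in Msh6. The match began 172 bases before the start in Fancb, and at base 13, 44 and 17 of the transcript in Rad51ap1, Chek1 and Msh6. Of the genes that were not called at day 1, Fancg had E2F letters in its window, Atrip had none and Rbbp8 had no window. Among the genes called lower, Palb2, Rad51b, Xrcc3, Rad54l, Fanca, Fancc, Fance, Fancl and Atr had no E2F letters in their windows. No window was given for Rad54b and Exo1, which fell furthest. The 250 bases upstream of Fancb (chrX:164980342-164980591) and of Atrip (chr9:109074125-109074374, minus strand) show a promoter with and a promoter without E2F letters. These letters and CCAAT (either strand) are in capitals.
Fancb: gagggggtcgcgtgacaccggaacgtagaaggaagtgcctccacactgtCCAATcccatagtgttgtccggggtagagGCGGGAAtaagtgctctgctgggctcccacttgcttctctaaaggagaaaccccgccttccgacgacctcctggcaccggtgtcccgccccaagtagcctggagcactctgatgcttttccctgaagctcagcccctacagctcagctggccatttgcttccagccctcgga
Atrip: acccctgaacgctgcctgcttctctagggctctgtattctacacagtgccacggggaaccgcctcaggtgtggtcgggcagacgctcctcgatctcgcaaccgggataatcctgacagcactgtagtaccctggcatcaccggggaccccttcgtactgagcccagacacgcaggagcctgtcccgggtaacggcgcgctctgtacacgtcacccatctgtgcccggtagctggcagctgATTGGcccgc

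At day 3 the pattern of day 1 was largely kept. Of the 35 genes 33 were lower in the enteroids labelled Mtgr1-/- and none was higher, against 29.1% called lower and 29.9% higher among all genes tested. All 3 libraries labelled Mtgr1-/- lay below all 3 WT libraries for 34 of the 35, as they did for 34.2% of all genes. The median log2 fold change was -0.99, and 31 genes were called lower on both days. Fancg and Atrip were called at day 3 and not at day 1, Atm at day 1 and not at day 3, and Rbbp8 on neither day.

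In recombination, 15 of 16 genes fell at day 3, with a median of -1.06. Rad54b was again lowest, at 435, 392 and 388 in WT and at 159, 112 and 119 in the libraries labelled Mtgr1-/-, or 32.2% of the WT mean (log2 fold change -1.64, SE 0.16, adjusted p = 0.000108). Rad51b followed at 105, 134 and 136 against 56.9, 28.8 and 47.2 (log2 fold change -1.52, SE 0.27, adjusted p = 0.00199). Exo1 was at 960, 900 and 951 against 497, 251 and 396 (log2 fold change -1.35, SE 0.22, adjusted p = 0.00134).

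Library 2 labelled Mtgr1-/- was the lowest of its group in each of these 3 genes. Rbbp8 stood at 1045, 921 and 991 in WT and at 903, 875 and 844 in those labelled Mtgr1-/-. Here the groups did not overlap, but the log2 fold change of -0.17 (SE 0.08, adjusted p = 0.113) did not pass the threshold. The call of Rad51c, with a log2 fold change of -0.85 (adjusted p = 0.0199), was lost with edgeR and with DESeq2, which were run without library 2 labelled Mtgr1-/-, and without WT library 1 or 3, and that of Brca1 (-0.66, adjusted p = 0.0122) without WT library 1.

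All 10 Fanconi genes were called lower at day 3, with a median of -0.76. Fancd2 was at 650, 574 and 627 in WT and at 378, 190 and 302 in the libraries labelled Mtgr1-/- (log2 fold change -1.14, SE 0.23, adjusted p = 0.00329). Fanci was at 487, 490 and 504 against 329, 166 and 222, and Fancb at 273, 304 and 296 against 168, 120 and 131, with log2 fold changes of -1.10 (adjusted p = 0.00354) and -1.06 (adjusted p = 0.000792). Fancg was at 289, 248 and 287 against 223, 185 and 191 (log2 fold change -0.46, SE 0.13, adjusted p = 0.0172).

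The groups of all 4 genes were apart, yet smaller falls in this role group depended on single libraries. The call of Fanca was lost without WT library 1, 2 or 3 or without library 3 labelled Mtgr1-/- and with DESeq2, that of Fance without WT library 1, 2 or 3, that of Fancg without WT library 1 or 3 or library 3 labelled Mtgr1-/-, and that of Brip1 without WT library 3. Over the 35 genes the count called lower was 27 without WT library 1 or 3, its lowest.

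In checkpoint signalling 6 of 7 genes fell at day 3, with a median of -1.02, and the same 3 genes led. Chek1 was at 647, 608 and 598 in WT and at 309, 216 and 236 in the libraries labelled Mtgr1-/- (log2 fold change -1.30, SE 0.14, adjusted p = 0.00022). Clspn was at 1192, 1097 and 1269 against 704, 415 and 529 (log2 fold change -1.14, SE 0.18, adjusted p = 0.00107). Topbp1 was at 4940, 4361 and 4795 against 2773, 1753 and 2302 (log2 fold change -1.07, SE 0.15, adjusted p = 0.00076).

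Atr fell by 1.02 and Chek2 by 0.66 on the log2 scale. Atrip was at 383, 395 and 365 in WT and at 299, 297 and 317 in those labelled Mtgr1-/- (log2 fold change -0.32, SE 0.10, adjusted p = 0.024), and this call was lost without WT library 1, 2 or 3, with DESeq2 and with quantile normalization. Atm was at 1251, 802 and 1208 against 964, 638 and 670, where WT library 2 lay inside the other group (log2 fold change -0.52, SE 0.21, adjusted p = 0.0616). It was called without that WT library and without library 1 labelled Mtgr1-/-.

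Msh6 stood at 2625, 2447 and 2567 in WT at day 3 and at 1614, 1024 and 1268 in the libraries labelled Mtgr1-/- (log2 fold change -0.99, SE 0.15, adjusted p = 0.000949). Pms2 was at 488, 485 and 468 against 305, 213 and 230 (log2 fold change -0.96, SE 0.15, adjusted p = 0.000968). Each gene was thus near 50% of the WT mean, at 51.1% and 51.9%.

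**Figure D3:**
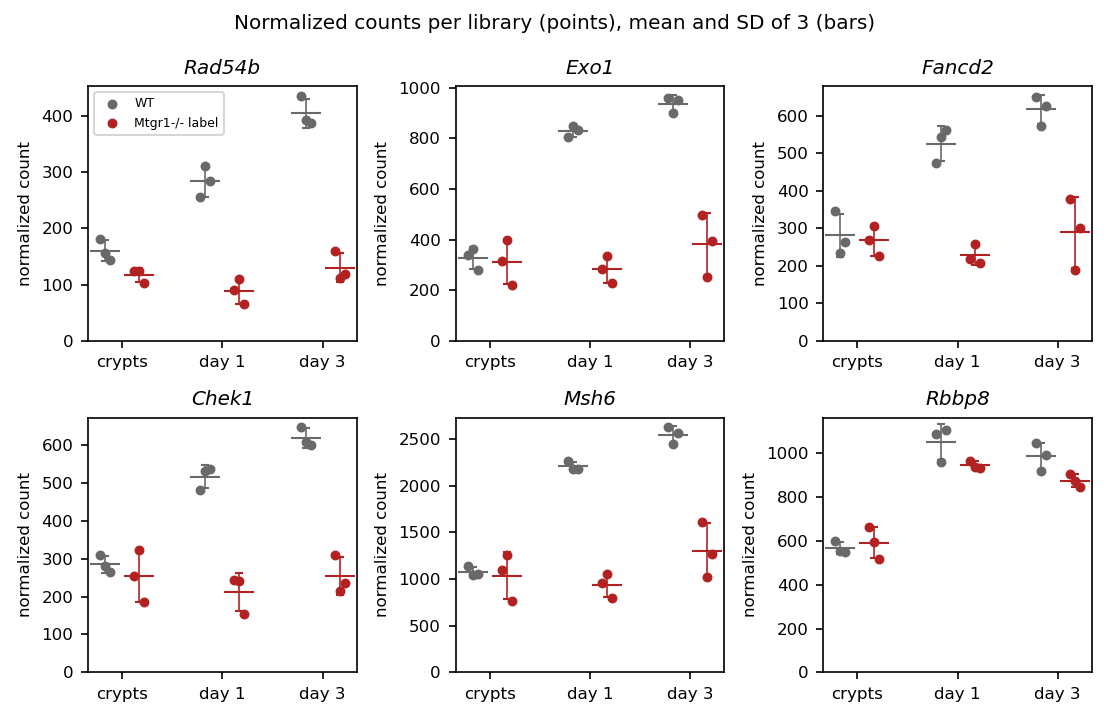
Normalized counts of 6 of the genes in each library (points), with the mean (horizontal bar) and SD (vertical bar) of the 3 libraries per genotype, on axes that start at 0. In crypts the genotypes overlap for all but Rad54b, whose 3 libraries labelled Mtgr1-/- lie below the 3 WT libraries. In enteroids Rad54b, Exo1, Fancd2, Chek1 and Msh6 are well apart, and Rbbp8 is not.

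Whether the genotype difference itself changed between time points was tested as an interaction in a fit that held the 18 libraries together and treated mouse as random. From crypts to day 1 it became more negative for 27 of the 35 genes and more positive for 0, where 21.1% and 20.3% of the 12145 genes in this fit were called in those directions. The change was largest for Exo1, at -1.47 on the log2 scale (SE 0.32, adjusted p = 0.00346), followed by Xrcc3 at -1.33 and Rad54b at -1.25. The 8 genes that were not called were Brca1, Rad51b, Rad51c, Rbbp8, Fancg, Fancl, Atm and Atrip. Without WT mouse 3, whose crypt library had the high leukocyte markers, 17 genes were called. That mouse was also the only WT mouse with high Xist, a female transcript, at 10177 in crypts against 2.87 and 6.93. Among the mice labelled Mtgr1-/-, mouse 1 had high Xist (11038 in crypts). The part of either trait in the lower count was not tested.

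From crypts to day 3 the difference became more negative for 20 of the 35 and more positive for 0, against 15.1% and 16.5% of all genes. Of these, 19 were also called from crypts to day 1. Xrcc3 changed most, at -1.36 (SE 0.31, adjusted p = 0.0067), followed by Exo1 at -1.25 and Rad54b at -1.20. This count leaned on few mice: it was 7, 7 and 5 without WT mouse 1, 2 or 3 and 12 without mouse 2 labelled Mtgr1-/-. Between day 1 and day 3 limma called 0 of the 35 genes in either direction, 0 had an unadjusted p under 0.05, and the estimates ran from -0.51 for Rad51b to 0.33 for Xrcc2. Of all genes 0.00823% were called more negative and 0.0247% more positive in that contrast.

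The 3 tables were normalized separately, so for this description all 18 libraries were put on a common scale by the median ratio of 9131 genes with at least 100 normalized counts everywhere, and no test was made across tables. In WT mice the 35 genes rose from crypts to day 1 by a median of 0.51, 0.69 and 0.82 on the log2 scale in mice 1, 2 and 3, and 31 of the 35 were higher in all 3 mice. In the mice labelled Mtgr1-/- the same change was -0.34, -0.23 and -0.16, and 22 of the 35 were lower in all 3 mice and 3 higher. The share of all genes that rose or fell in all 3 mice was not computed, for this step or for day 3. Whether such counts are particular to the 35 genes was not tested.

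By day 3 the WT medians were 0.79, 0.80 and 1.01 above the crypts of the same mouse, with 34 of the 35 genes higher in all 3 mice. In mice 1 and 3 labelled Mtgr1-/- they were 0.22 and 0.31 above, and in mouse 2 they were -0.45. Scaling each library to the same total instead gave larger values in WT, with medians from 0.68 to 1.14 at day 1, and from -0.54 to -0.20 in the mice labelled Mtgr1-/-. Exo1 is an example on the common scale. It went from 361.1 ± 41.1 (SD, n = 3) in WT crypts to 817.5 ± 33.5 at day 1, and from 337.7 ± 93.0 to 273.5 ± 52.6 in those labelled Mtgr1-/-. Rbbp8 rose in both, from 625.4 ± 23.6 to 1037 ± 70.1 and from 639.4 ± 77.4 to 913.9 ± 13.9.

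**Figure D4:**
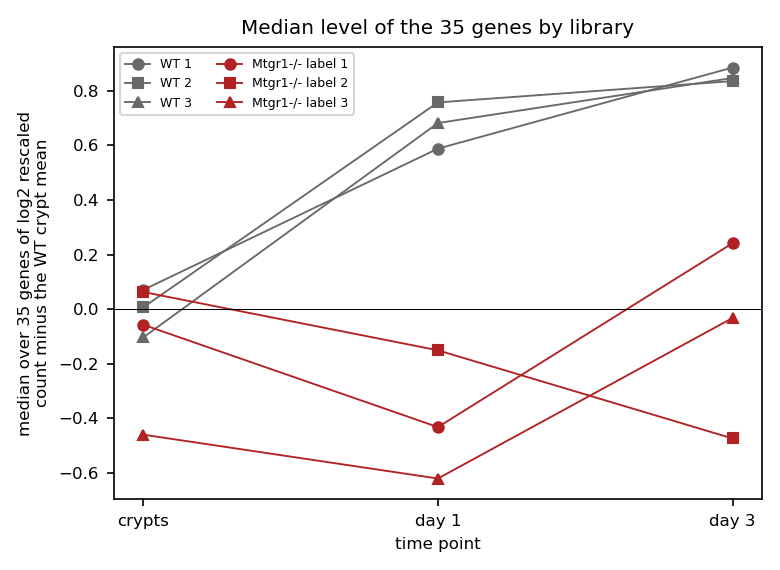
The vertical axis gives the median over the 35 genes of the log2 rescaled count minus the WT crypt mean, for each mouse in crypts, at day 1 and at day 3 (lines join libraries of the same mouse). The 3 WT mice climb to between 0.84 and 0.88 by day 3. The mice labelled Mtgr1-/- stay between -0.62 and 0.24, and mouse 2 is the lowest of them at day 3.

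Genes that mark dividing cells were called lower on the same days. A list of 24 cell cycle genes, which shares no gene with the 35, had 0 called in crypts, 23 lower at day 1 (median -1.18) and 24 lower at day 3 (median -1.01). Among the libraries labelled Mtgr1-/- the order was the same on both scores. At day 1 the medians of the 35 genes in libraries 1, 2 and 3 labelled Mtgr1-/- were -1.04, -0.78 and -1.33 against the WT mean, and those of the cell cycle list were -1.17, -0.85 and -1.50. At day 3 they were -0.65, -1.27 and -0.96 beside -0.68, -1.39 and -0.90. Most markers of enterocytes moved the other way, with 7 of 8 higher on both days and 1 called lower at day 1 (log2 fold change -2.59). Their summed values at day 1 were 395237 to 652986 against 217874 to 291605 in WT. Among the libraries labelled Mtgr1-/-, library 2 had the lowest of these sums at day 1 and the highest at day 3 (590400). Markers of crypt base stem cells were lower for 5 of 5 on both days. The part of these cells in the repair genes' values was not tested.

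To ask which of the 35 genes changed more or less than the cell cycle list, the mean log2 value of that list was subtracted in each library and the fit was repeated. On this scale 4.08% of all genes were called lower and 77.9% higher at day 1, and 4.28% and 74.1% at day 3, since most genes had not fallen with the list. Few of the 35 were called lower than it: at day 1 only Rad54b and Exo1 were called lower and 10 were called higher, and at day 3 Rad54b and Rad51b were lower and 7 were higher.

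Rad54b stood below the list on both days, by -0.56 (SE 0.18, adjusted p = 0.0165) at day 1 and by -0.69 (SE 0.20, adjusted p = 0.00805) at day 3. At day 1 the call was lost without WT library 2 or 3. For Exo1 the difference was -0.44 at day 1 (adjusted p = 0.0205), and this call was lost when the mice were paired by number, when Mki67 alone was the reference, and without WT library 1, 2 or 3 or library 1 labelled Mtgr1-/-. With the mice paired, 1 gene was called lower at day 1. For Rad51b the difference was -0.57 at day 3 (adjusted p = 0.0458), a call that was lost without any of the WT libraries or without library 2 or 3 labelled Mtgr1-/-.

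The 7 genes that stood above the list on both days were Rbbp8, Rad50, Nbn, Fanca, Fancg, Brip1 and Atrip. With the mice paired by number, Rad50, Nbn and Fancg lost this call at day 3. Rbbp8 led at day 3, at 0.78 (SE 0.21, adjusted p = 0.00593), after 0.98 at day 1, and Atrip led at day 1, at 1.06 (SE 0.23, adjusted p = 0.00198), after 0.63 at day 3. Rbbp8, Rad50 and Nbn act at the start of break resection, but Exo1, which also resects ends, was called below the list at day 1. In the normalized counts Rad50 and Nbn were still lower on both days. Brca1, Fance and Atm were above the list at day 1 only, by 0.76, 0.41 and 0.51. At day 3 the count of 7 was 4, 2 and 1 without WT library 1, 2 or 3 and 2 without library 3 labelled Mtgr1-/-, so this group leaned less on single libraries at day 1, where the same counts were 7, 7, 8 and 9.

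**Figure D5:**
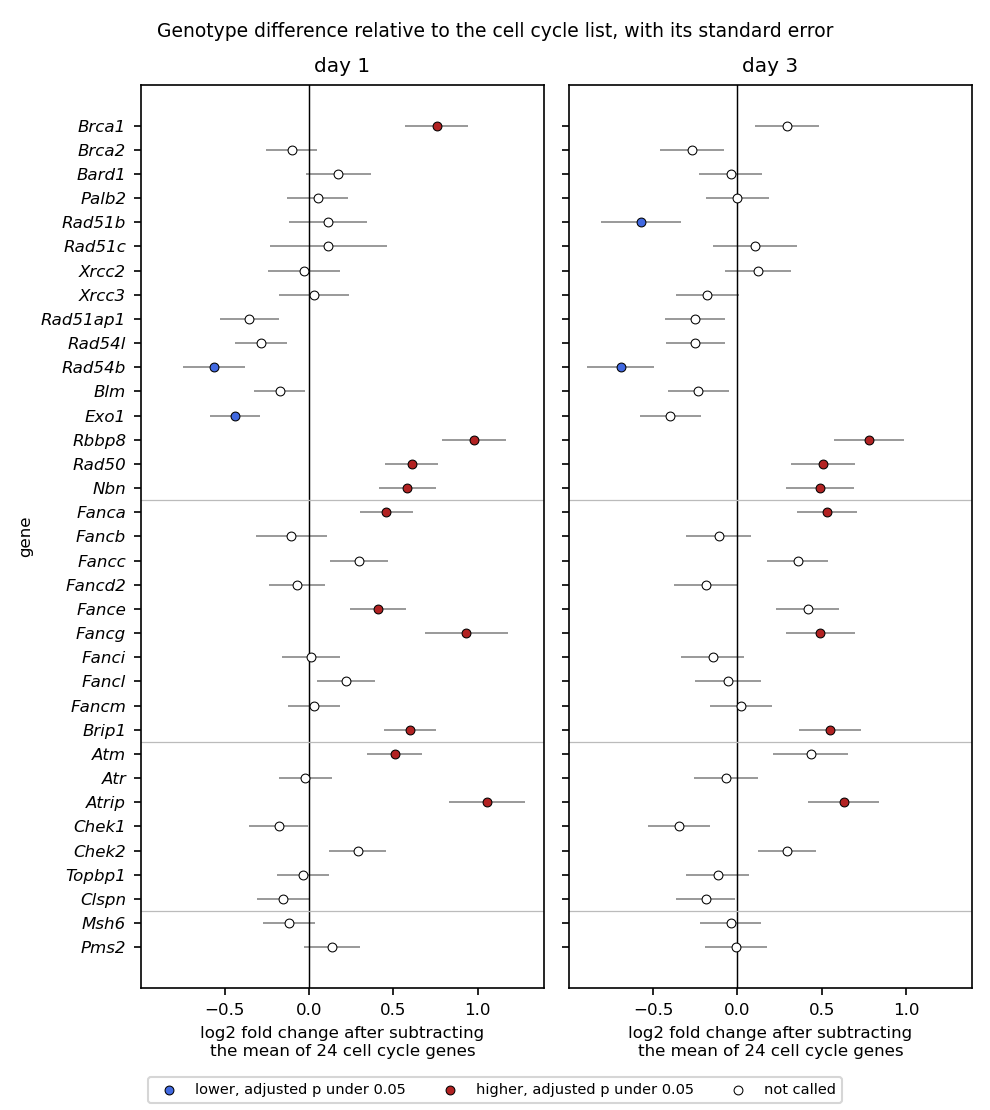
Points give each gene's log2 fold change at day 1 and day 3 after the mean of 24 cell cycle genes was subtracted in each library, and bars its standard error (3 libraries per genotype). Blue points are called lower and red points higher than that list. Rad54b is blue on both days, 7 genes are red on both days, and most points are open.

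Other genes of the same pathways moved in the same direction. Of 31 further recombination and Fanconi genes 22 were lower at day 1 and 21 at day 3, with medians of -0.66 and -0.63 and none higher. The largest falls at day 1 were those of Hells, a chromatin remodeller, and Ube2t, the conjugating enzyme of the Fanconi pathway (log2 fold changes -1.53 and -1.52), and at day 3 those of Ube2t and Rmi2, a partner of BLM (-1.56 and -1.47). Of 19 further checkpoint genes 16 were lower on each day, with medians of -0.98 and -0.80. Timeless and Tipin, which form the complex that protects the fork, led with -1.64 and -1.63 at day 1 and -1.35 and -1.34 at day 3. Of 5 further mismatch repair genes 4 were lower on each day, led by Pms1 (-1.49 and -1.23).

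Genes of 3 other repair pathways were called in both directions, though mainly lower in base excision repair. Of 10 end joining genes, 2 were lower and 2 higher on each day, below the share over all genes in either direction, with medians of 0.17 and 0.01. Such counts moved by over 1.5 times in 30 cases, with each alternative setting, time point and direction counted apart. Xrcc6, which encodes the Ku70 subunit that caps broken ends, fell by 0.73 and 0.68 on the log2 scale, and Paxx, a scaffold of the same pathway, was higher by 0.95 and 0.54. Of 18 base excision repair genes 11 were lower and 1 higher at day 1, and 9 and 1 at day 3. Over all genes tested 28.9% were lower and 30.0% higher at day 1, and 29.1% and 29.9% at day 3. Ung, which removes uracil from DNA, and Parp1, which binds strand breaks, fell furthest at day 1 (-1.66 and -1.60), and Neil3, a glycosylase, and Ung at day 3 (-1.55 and -1.34). Of 20 nucleotide excision repair genes 7 were lower and 4 higher at day 1 (35% and 20%), and 4 and 3 at day 3 (20% and 15%). These shares lay near or below those over all genes. In this pathway Ercc8 (-0.90) was lowest and Ddb1 (0.49) among the highest at day 1, and at day 3 these were Ddb2 (-0.94) and Gtf2h1 (0.51). The counts of the pathways were not tested against each other.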

How the data were processed

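Per the labels, poly(A) RNA of duodenal crypts and enteroids was made into libraries with a stranded mRNA kit. The authors trimmed single reads with fastp 0.20.0, quantified them with Salmon 1.3.0 against GENCODE transcripts, summed them per gene and divided the counts by DESeq2 1.26.0 size factors within the table of each time point. The deposited values are therefore a signal, gene counts over 1 size factor per library, and the mean of that signal is deposited beside them. The authors' log2 fold changes, their standard errors, the test statistic (a score) and their p-values were also deposited and were not used.

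The 35 genes and the gene lists were chosen with earlier results of these data known. Symbols were matched in each table to 1 Ensembl gene (GENCODE M21, GRCm38). A second row that carries the symbol Pms2 belongs to Rsph10b and was left out. limma 3.58.1 (R 4.3.3) was fitted with an empirical Bayes trend on log2(normalized count + 1) for genes with a mean of at least 10 over the 6 libraries of a time point (12980, 12587 and 12782 genes), two-sided, with adjusted p under 0.05 as the threshold. With 3 against 3 mice an exact permutation test of a single gene could not go below 0.1. In the interaction fit mouse was random (correlation within a mouse -0.0048). Divided by the smallest value in a library, 100% of the values were whole in each of the 18 libraries (tolerance 1e-06). edgeR 4.0.16 and DESeq2 1.42.0 were run on these reads of 16 libraries as alternatives. WT crypt 2 and day 3 library 2 labelled Mtgr1-/-, with a size factor near 1, were left out of the count tests. The fits of each time point, of day 1 minus crypts and of day 1 relative to the cell cycle list were tested on simulated data. These data held no mouse effect, and the other contrasts and the count tests were not tested in this way.

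The labels give WT and Mtgr1-/- mice the same numbers 1 to 3. Between same-numbered mice, deviations from the group means had correlations of 0.116, 0.231 and 0.216 at day 1. In crypts these were 0.0764, 0.274 and 0.346, and at day 3 -0.00666, -0.00226 and -0.0156. Whether the numbers pair the mice is not settled by these values, and the study does not state it. The main tests were therefore unpaired, and pairing by number was run as an alternative.

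Members named singly were, at each time point and in each role group, the 3 with the largest changes, those against the majority and those not called. Of other lists they were the 2 largest falls and rises, and a gene of these lists that the rule names is not reported here. Other members were named for their role after their values were seen. Alternatives covered scaling, pseudocounts of 0.1 and 8, filter, trend, an Xist covariate, the replicate block and each library left out.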

Additional observations from a re-analysis of the deposited data

Results flagged for a closer look

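The genotype difference of the repair and checkpoint genes differed between time points by the interaction test of limma. From crypts to day 1 it became more negative for 27 of the 35 genes, against 21.1% of all genes, and for 17 without WT mouse 3. The largest changes were those of Exo1 (-1.47 on the log2 scale), Xrcc3 (-1.33) and Rad54b (-1.25). In Xrcc3, a recombination gene, the crypts labelled Mtgr1-/- were at 172, 189 and 145 beside 156, 124 and 152 in WT, and at day 1 they were at 95.6, 165 and 94.9 beside 208, 292 and 246.

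From crypts to day 3 the difference became more negative for 20 of the 35, against 15.1% of all genes, with the largest changes again in Xrcc3 (-1.36), Exo1 (-1.25) and Rad54b (-1.20). The count from crypts to day 3 fell to between 5 and 12 without WT mouse 1, 2 or 3 or mouse 2 labelled Mtgr1-/-. Groups of 3 libraries are too small for a check for outlying samples.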

How the results depend on the processing

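The counts of genes called lower at day 1 (30 to 32) and at day 3 (27 to 34) and the absence of calls in crypts, of calls in the higher direction and of calls between day 1 and day 3 were kept within 1.5 times under every alternative run, and no call of a single member reversed its sign. The medians moved by less than the spread of the libraries. The replicate block, a paired analysis by mouse number, gave 0 genes lower in crypts, 32 on the first and 33 on the last time point in culture, and changed no call of the 35 genes at day 1 outside the comparison with the cell cycle list. In that comparison the block left 1 gene lower on each day and 4 higher at day 3, where Rad51b, Rad50, Nbn and Fancg lost their calls.

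The count of genes with a more negative difference ran from 17 to 28 (day 1 minus crypts) and from 5 to 25 (day 3 minus crypts) when 1 mouse was left out. Relative to the cell cycle list, 0 to 2 genes were lower and 7 to 10 higher at day 1, and 1 to 3 lower and 1 to 8 higher at day 3, when 1 library was left out. With Mki67 alone as the reference 1 gene was lower on each day, and with a pseudocount of 8 or no filter 1 was lower at day 3. These fits lose a library and with it degrees of freedom, and for the other alternatives the cause was not tested. Counts of called end joining genes, at most 2 in a direction, moved by over 1.5 times in 30 cases. Each alternative, time point and direction was counted apart. WT crypt library 3 carried leukocyte RNA, 3 mice a group limit small differences, and the genotype of the libraries rests on their labels.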
